A study of Mus musculus with 58 samples.

Results

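Lithium was compared with vehicle in the prefrontal cortex of wild-type mice, using 8 libraries from lithium-treated and 10 from vehicle-treated animals out of 58 libraries in the series. All mice were of the C57BL/6J strain, and wild-type (WT) here means that neither copy of Kmt5b, the histone H4 lysine methyltransferase gene under study, was mutated. Pups took in the drug or the vehicle with the milk of their mothers for 3 weeks, from postnatal day 3 to postnatal day 24, and the cortex was collected on postnatal day 25 for stranded mRNA sequencing of whole tissue. The lithium arm held 4 females and 4 males and the vehicle arm 5 females and 5 males. For reference, 10 WT libraries after fluoxetine and 20 libraries of mice heterozygous for Kmt5b (HT), 10 after lithium and 10 after vehicle, were read in the same way. The test covered 16669 of the 18088 genes in the deposited table, those whose normalised count averaged 10 or more over all libraries. The labels named no litters, and a drug given through the milk can be shared by littermates, so the p values measure the spread between mice only. That spread was taken within groups of genotype, drug and sex over all 58 libraries, fluoxetine and HT libraries among them.

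Lithium is a mood stabiliser. It is known to inhibit glycogen synthase kinase 3 (Gsk3a and Gsk3b), which marks beta-catenin for destruction in the Wnt pathway, and the phosphatases that return inositol phosphates to free inositol (Impa1, Impa2, Inpp1). In the brain it is also known to raise chaperones of the endoplasmic reticulum (ER), of which Hspa5, also called GRP78 or BiP, is the main one. A further group of genes described here is known to respond to glucocorticoids, the stress hormones that act through the receptors Nr3c1 and Nr3c2. Chaperone genes of the ER are known for a promoter element read by Atf6 and Xbp1 under ER stress.

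The depth of the 18 libraries lay between 24.2 M and 38.6 M recovered reads. Lithium females 3 and 4 had 38.6 M and 37.7 M, and the others at most 31.5 M. Pairs of lithium females differed by 17.3 to 57 times counting noise, a ratio that also grows with depth. It was 4.97 to 16 in lithium males, 9.08 to 21.7 in vehicle females and 11.7 to 24.2 in vehicle males. The p values use a spread shared by all groups, so they do not reflect the wider range of the lithium females. The 12 excitatory neuron markers of cortex were above 0 in every WT library of both arms, with a summed normalised count of 150390 to 189030 after vehicle and 133730 to 179400 after lithium. Genes of the olfactory bulb, which borders the dissected region, were also present: the mean log2(normalised count + 1) of Doc2g, Cdhr1, Eomes and Tbx21 lay between 7.08 and 9.79 in the lithium libraries. In the vehicle arm it lay at 3.87 in female 3, 5.01 in male 1 and 4.20 in male 5, and between 6.77 and 9.50 in the others. All 10 olfactory bulb markers listed were tested and 0 passed, yet 9 lay above 0 after lithium with a median log2 difference of 0.75, and the main counts below are also given with the 3 low vehicle libraries left out together. Vehicle female 5 stood apart in the genes of striatal neurons, with a level of 8.63 against 7.23 to 7.71 in the other vehicle libraries. The sex-linked genes went against the label in 0 of the 58 libraries. Kmt5b had a median normalised count of 1587 after vehicle and 1579 after lithium (log2 difference -0.02 ± 0.05 SE, adjusted p = 0.862).

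Lithium changed 556 genes in WT cortex at an adjusted p under 0.05, which is 3.34% of the genes tested: 325 rose and 231 fell. At an unadjusted p under 0.05 there were 2651. Most changes were small: 56 genes moved by more than 1.5-fold, 32 up and 24 down, and 14 by more than 2-fold (0.336% and 0.084% of genes tested). The sexes gave the same sign for 547 of the 556, beside 7954 of all 16669 genes; calling genes on the average of the sexes favours equal signs. For 48 genes the lithium and vehicle libraries did not overlap at all, 39 of them higher and 9 lower after lithium, which is 0.288% of genes tested. Of the 556, 51 were predicted genes or pseudogenes and are not named. A fit on the 4 compared groups alone called 229 genes, and edgeR on the recovered reads called 222. Without the 3 vehicle libraries of low olfactory bulb level there were 321, of which 223 rose and 98 fell, so the share of higher genes went from 58.5% to 69.5%. With 1 library left out, the count was 272 without lithium female 4, 347 without lithium male 3, 357 without lithium male 4 and within 1.5 times 556 otherwise. Bulk tissue cannot tell fewer cells of a type from less RNA per cell.

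The ER chaperones had the most risen members of the 48 lists counted, and the promoters of several carry the ER stress element, so these sequences are shown first. The element was searched as CCAAT and CCACG separated by 9 bases, on both strands, in windows from 250 bases before to 50 bases after each annotated start (RefSeq, GRCm38.p6). It was found in 20 of the 12087 tested genes with a window (0.165%) and in 9 of the 26 ER chaperones with a window (34.6%). Below is the element in each of the 5 chaperones that rose and carried it, 5′ to 3′ in the reading direction of the motif, with the fixed bases in capitals.
Hspa5: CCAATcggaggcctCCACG
Pdia6: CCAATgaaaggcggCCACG
Dnajc3: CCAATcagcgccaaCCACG
Creld2: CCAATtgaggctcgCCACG
Calr: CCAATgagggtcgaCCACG
The first base of the match lay at position -65 from the annotated start in Hspa5, -98 in Pdia6, -105 in Dnajc3, -126 in Creld2 and -162 in Calr, and in Creld2 and Calr the match was on the reverse strand. The element was not confined to members that rose: 5 of 11 risen members with a window had it, and so did 4 of 15 members that did not rise (Hsp90b1, Canx, Derl3 and Syvn1). The 250 bases upstream of the RefSeq start of Hspa5 lie at chr2:34771840-34772089 on the plus strand of GRCm38.p6. They are given with the element in capitals to show its place near that start.
Hspa5 upstream: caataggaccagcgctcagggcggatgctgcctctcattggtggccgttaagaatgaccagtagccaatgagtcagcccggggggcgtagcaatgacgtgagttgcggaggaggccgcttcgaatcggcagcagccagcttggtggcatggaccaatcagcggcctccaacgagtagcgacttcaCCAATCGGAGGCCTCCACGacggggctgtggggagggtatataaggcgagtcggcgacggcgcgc
A match is a description of letters and not of binding. Another 9 motifs were searched in the same windows on both strands: the cAMP element TGACGTCA and its core TGACG, the sterol element TCACNCCAC, the amino acid response element TGATGCAAT, the serum response element, the E-box CACGTG, the Wnt-linked CTTTGATC and CTTTGTTC, and the glucocorticoid element, AGAACA and TGTTCT separated by 3 bases. The core TGACG lies within TGACGTCA. The glucocorticoid element was found in 1 of 12087 windowed genes (0.00827%), Sgk1, and in 0 of the 6 risen glucocorticoid-responsive genes with a window. With 1 match among all windowed genes, a count of 0 among 6 carries no information about those genes.

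Of 31 ER chaperones and their regulators tested, 13 rose and 1 fell, beside 1.95% of all genes that rose and 1.39% that fell. The list was chosen with earlier results of these data known, so its count is not independent of them. The median log2 difference of the list was 0.12, beside -0.0013 over all genes, and 27 of 31 members lay above 0. The gene span of Hspa5 is chr2:34771970-34777547, plus strand, in the GENCODE annotation. It begins before the RefSeq start used for the promoter windows, so some bases shown above, the element among them, lie within it. Hspa5 had a normalised count of 5616 at the lowest, 6403.5 at the median and 8004 at the highest among vehicle libraries, and of 7887, 9237.5 and 11340 among lithium libraries. The 2 lowest lithium libraries lay below the highest vehicle library and above the others, so the arms overlapped slightly. The log2 difference was 0.50 ± 0.08 (SE), a 1.42-fold rise (adjusted p = 8.3e-05). The disulfide isomerases Pdia4 and Pdia6, which form the bonds of folding proteins, rose by 0.50 ± 0.09 and 0.34 ± 0.07 (SE) on the log2 scale (adjusted p = 0.000305 and 0.00102). The co-chaperones of Hspa5 were also among the members that rose: Dnajc3 by 0.29 ± 0.05 and Dnajb11 by 0.20 ± 0.04 (SE), with adjusted p of 0.000128 and 0.000685. Dnajb11 reached from 1509 to 1694 after vehicle and from 1696 to 1939 after lithium, so that its arms just failed to overlap.

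The secreted factor Manf, which is retained in the ER with Hspa5, spanned 851.4 to 1037 normalised counts after vehicle and 1050 to 1435 after lithium. Its arms did not overlap, and the log2 difference was 0.31 ± 0.06 (SE, adjusted p = 0.0014). Among the others, Sdf2l1 had a log2 difference of 0.60, Creld2 of 0.43, Calr of 0.25, Hyou1 of 0.23 and Herpud1 of 0.22, all past the threshold with adjusted p from 0.00228 to 0.00875. Sdf2l1, Creld2, Calr, Hyou1, Herpud1, Xbp1 and Derl2 here, and Tsc22d3, Plin4 and Nr3c2 below, are list members chosen after their values were seen. Calr is the lectin chaperone calreticulin, Hyou1 a large partner of Hspa5, and Herpud1 a part of the machinery that removes misfolded proteins. Xbp1, the transcription factor of the ER stress response, rose by 0.20 and Derl2 by 0.13, while Cdnf, a relative of Manf, fell by 0.57 on the log2 scale from a low level. These 3 calls are less firm: with each of the 18 libraries left out in turn, Xbp1 lost its call 6 times, Derl2 9 times and Cdnf 9 times, with adjusted p up to 0.0854, 0.098 and 0.139. Other calls held there but not in every setting. Herpud1 and Hyou1 lost theirs in the compared groups alone, in males alone and with edgeR. Sdf2l1, Calr, Creld2, Pdia6, Manf and Dnajb11 did not pass in males alone (adjusted p from 0.113 to 0.505). Hsp90b1 and P4hb, also abundant in the ER, did not pass. The count of risen members was 12 without the 3 vehicle libraries of low olfactory bulb level and 9 in the fit on the compared groups alone. In females alone 11 rose, beside 1.17% of all genes, and in males alone 4, beside 1.6%, and 0 members differed in their lithium effect between the sexes.

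**Figure D1:**
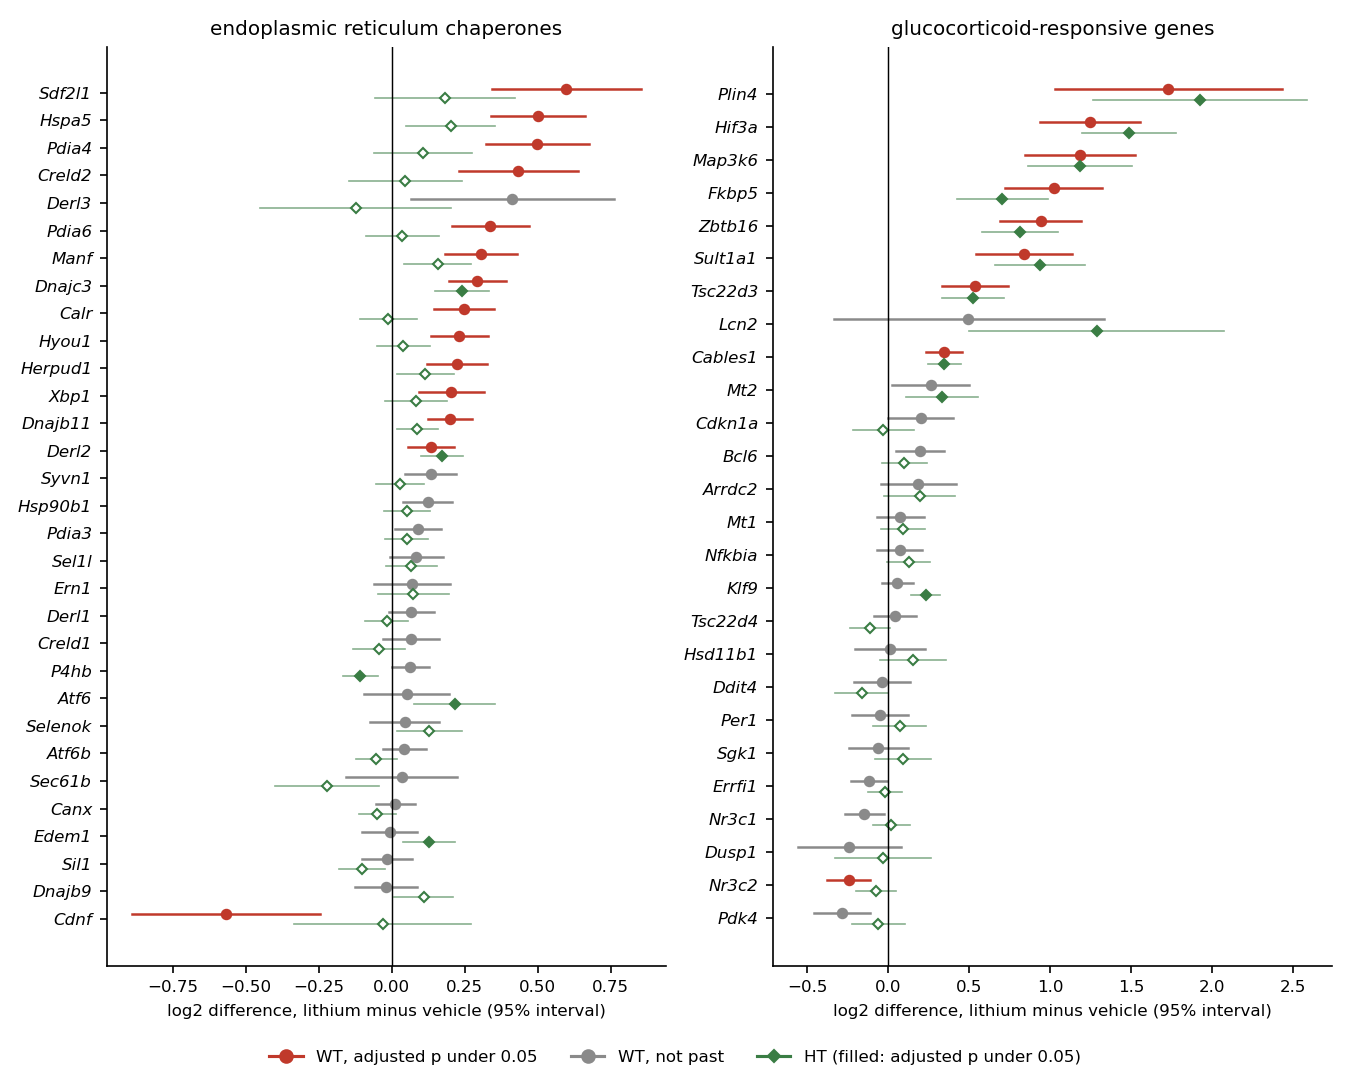
Log2 difference between lithium and vehicle with its 95% interval for every tested member of 2 gene lists, in WT (circles, red where the adjusted p was under 0.05) and in HT mice (green diamonds, filled where the adjusted p was under 0.05). In WT, 13 of 31 ER chaperones rose and 1 fell, and 8 of 26 glucocorticoid-responsive genes rose and 1 fell, beside 1.95% and 1.39% of all genes. In HT, 4 and 11 rose, beside 7.46% of all genes.

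Several of the changes over 2-fold were in genes known to respond to glucocorticoids. Of 26 such genes tested, 8 rose and 1 fell, beside 1.95% and 1.39% of all genes, with a median log2 difference of 0.13. This list too was chosen with earlier results of these data known, so its count is not independent of them. Without the 3 vehicle libraries of low olfactory bulb level 8 rose and 0 fell. Hif3a (chr7:17031507-17062427, minus strand), a member of the hypoxia-inducible factor family that dampens its relatives, had 88.7, 146.6 and 227.1 normalised counts at the lowest, median and highest of the vehicle libraries. In the lithium libraries these were 285, 339 and 421.6, so every lithium library lay above every vehicle library. The log2 difference was 1.25 ± 0.15 (SE), a 2.37-fold rise (adjusted p = 7.92e-07). Zbtb16 (chr9:48654297-48836222, minus strand), a zinc finger transcription factor also known as PLZF, went from 491.4 to 867.3 after vehicle (median 739) to 1065 to 1589 after lithium (median 1388.5), again with no overlap. It rose by 0.94 ± 0.12 (SE) on the log2 scale (adjusted p = 2.99e-06).

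Map3k6, a kinase of the stress-activated MAP kinase cascade, spanned 48.3 to 91.9 normalised counts after vehicle and 98.9 to 177 after lithium, without overlap. Its log2 difference was 1.19 ± 0.17 (SE, adjusted p = 1.82e-05). Fkbp5 (chr17:28399094-28517527, minus strand), the co-chaperone that lowers the hormone affinity of the glucocorticoid receptor, had a median of 596 after vehicle and 1282 after lithium. Vehicle male 3, at 1114, lay above the 2 lowest lithium libraries, and the other vehicle libraries reached only 713.1. Fkbp5 rose by 1.02 ± 0.15 (SE) on the log2 scale, a 2.03-fold change (adjusted p = 1.98e-05). The sulfotransferase gene Sult1a1 spanned 138.2 to 217.5 after vehicle and 253.2 to 409.4 after lithium, and rose by 0.84 ± 0.15 (SE, adjusted p = 0.000257). Tsc22d3, known as GILZ, and Cables1 rose by 0.53 ± 0.10 and 0.35 ± 0.05 (SE), with adjusted p of 0.000842 and 7.97e-05. Plin4, a lipid droplet protein gene with at most 54.3 normalised counts in any of these libraries, rose by 1.73 ± 0.35 (SE, adjusted p = 0.00157). It did not pass in females alone (adjusted p = 0.0871).

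Of the hormone receptors, Nr3c2 fell by 0.24 on the log2 scale (adjusted p = 0.0253), a call that ended with 5 of the 18 libraries left out in turn (adjusted p up to 0.0778), while Nr3c1 did not pass. Other members often used as readouts of the hormone, Sgk1, Per1 and Klf9, did not pass in WT either, as the interval plot of these lists shows. Across the alternatives with both sexes and the full gene set, 8 or 9 members rose; 7 rose among genes with a mean of at least 100, which leaves Plin4 untested. In females alone 7 rose, beside 1.17% of all genes, and in males alone 8, beside 1.6%.

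**Figure D2:**
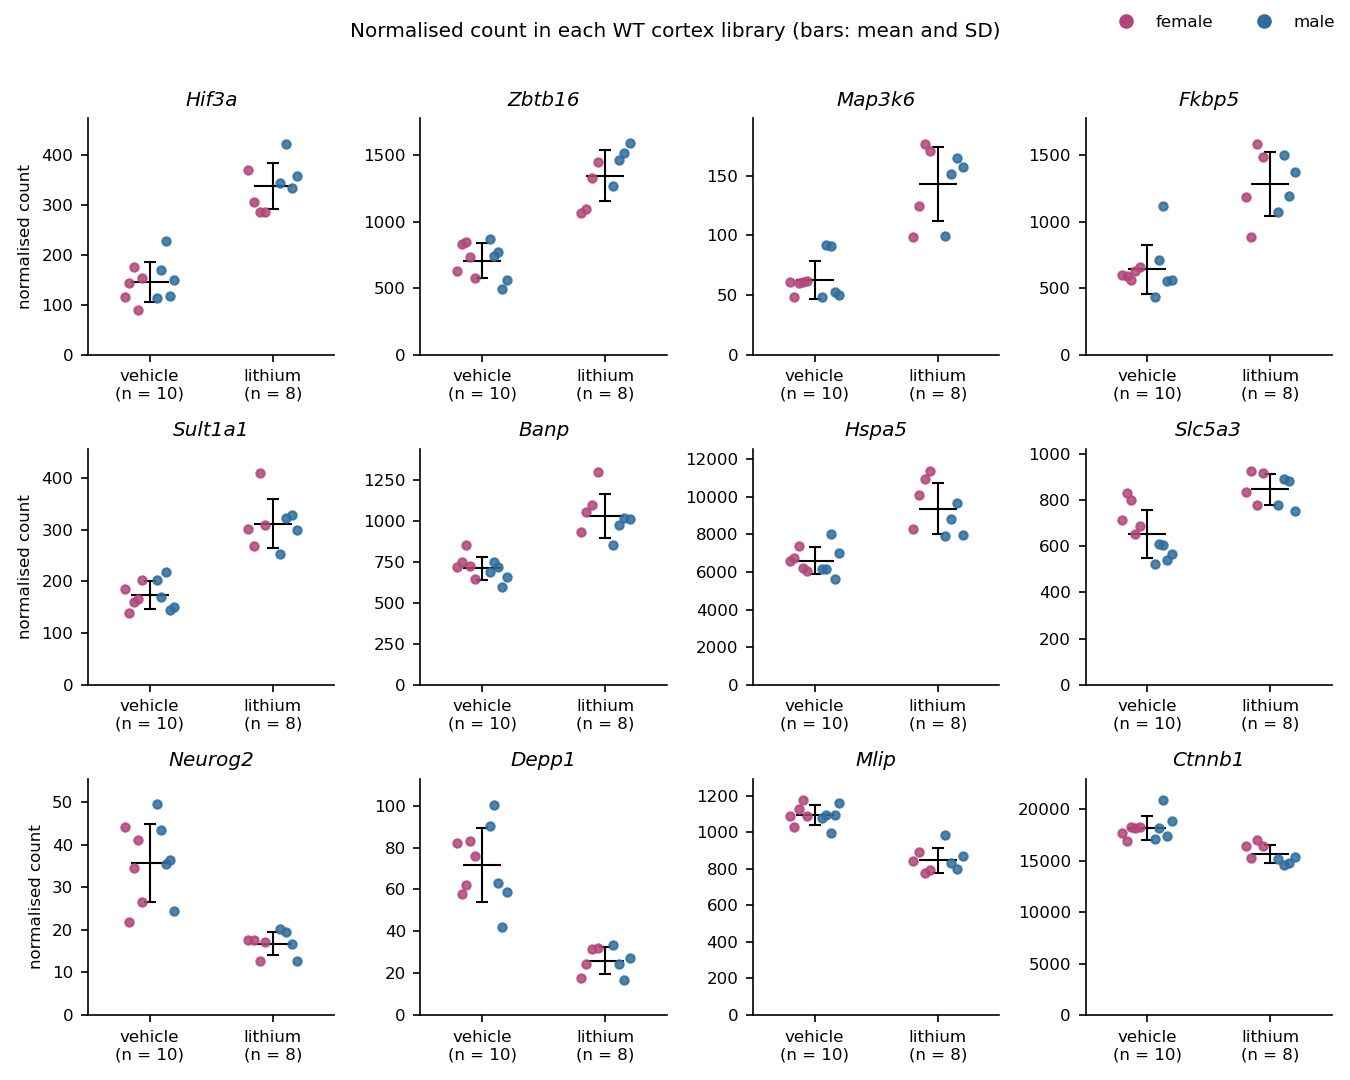
Normalised count of 12 genes in each WT library, females and males in separate colours, with the mean and SD of each arm (10 vehicle and 8 lithium libraries) and axes from 0. Hif3a, Zbtb16, Map3k6, Sult1a1, Banp, Neurog2, Depp1 and Mlip show no overlap between arms, whereas Fkbp5, Hspa5, Slc5a3 and Ctnnb1 overlap in 1 or a few libraries.

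The smallest p of all belonged to Banp (chr8:121949750-122029258, plus strand), which encodes a DNA-binding protein of the nuclear matrix. Its normalised count was 594.5, 720.4 and 851.7 at the lowest, median and highest of the vehicle libraries and 853.6, 1013.5 and 1298 in the lithium libraries. The arms did not overlap, though by a margin of few counts, and the log2 difference was 0.53 ± 0.06 (SE, adjusted p = 1.03e-07). Paqr8, a membrane progesterone receptor, went from a median of 3239.5 to 4202.5 without overlap (log2 difference 0.39, adjusted p = 8.51e-07). Gpt2, the mitochondrial alanine aminotransferase, rose by 0.38 ± 0.05 (SE) and the exchange factor gene Mcf2l by 0.30 ± 0.05 (SE), both without overlap. Etnppl, an astrocyte enzyme that breaks down phosphoethanolamine, more than doubled, from 88.2 to 290.9 (median 197) after vehicle to 296.9 to 689.4 (median 426) after lithium. Its log2 difference was 1.17 ± 0.26 (SE, adjusted p = 0.00526), and in males alone it did not pass (adjusted p = 0.103). Pkp2, a desmosomal plaque protein, spanned 77.3 to 135.1 after vehicle and 151.8 to 219.7 after lithium and rose by 0.98 ± 0.16 (SE, adjusted p = 0.000128). Next by p on the rising side came Sgsm1, Prr5, Adam8 and Hbs1l, with log2 differences of 0.35, 0.66, 0.70 and 0.19.

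In the hypoxia list, which shares Hif3a with the glucocorticoid list, 4 of 23 members rose and 0 fell, beside 1.95% and 1.39% of all genes, and 4 also rose without the 3 vehicle libraries of low olfactory bulb level. Pfkfb3, which makes the activator of glycolysis fructose-2,6-bisphosphate, spanned 655.5 to 997.4 after vehicle and 1045 to 1322 after lithium and rose by 0.41 ± 0.06 (SE, adjusted p = 6.94e-05). The glucose transporter gene Slc2a1 rose by 0.50 ± 0.09 and the collagen hydroxylase gene P4ha1 by 0.30 ± 0.05 (SE), with adjusted p of 0.000153 and 0.000329. The median of the list was 0.02.

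Of the enzymes that lithium is known to inhibit, none passed at the mRNA level. Gsk3a and Gsk3b had log2 differences of -0.05 (95% interval -0.15 to 0.04) and -0.00 (-0.09 to 0.08). Gsk3b stood at -0.17 in females and 0.16 in males, neither past the threshold, while the difference between the sexes passed (-0.33, adjusted p = 0.0237). This call was lost in the fit on the compared groups alone and with the exon length slope described below in the model, where 0 genes differed between the sexes. The inositol monophosphatases Impa1 and Impa2 stood at 0.10 (0.02 to 0.19, adjusted p = 0.158) and 0.15 (-0.03 to 0.33), Inpp1 at -0.05 (-0.13 to 0.03) and Bpnt1 at 0.03 (-0.04 to 0.10). The 1 member of this list of 13 that rose was Slc5a3 (chr16:92058322-92087473, plus strand), which encodes the sodium-coupled transporter that brings myo-inositol into cells. It had 522.9, 630.6 and 830.1 normalised counts at the lowest, median and highest after vehicle and 751.9, 858.5 and 926.3 after lithium. The log2 difference was 0.38 ± 0.07 (SE, adjusted p = 0.000422), and 2 vehicle females lay within the range of the lithium arm. In females alone Slc5a3 did not pass (adjusted p = 0.203). Of 52 genes of the phosphoinositide cycle, 0 passed with limma and the median was -0.0011. In the list of osmolyte genes, to which Slc5a3 also belongs, 3 of 12 rose, beside 1.95% of all genes. The calls of Slc38a2 and Trpv4 were less firm than that of Slc5a3. With each of the 18 libraries left out in turn they were lost 14 and 7 times, with adjusted p up to 0.121 and 0.117.

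Beta-catenin itself, Ctnnb1 (chr9:120929216-120960507, plus strand), fell slightly. Its normalised count was 16900, 18195 and 20950 at the lowest, median and highest after vehicle and 14560, 15330 and 17000 after lithium, with overlap near the boundary. The log2 difference was -0.22 ± 0.04 (SE, adjusted p = 0.000402). In females alone Ctnnb1 did not pass (adjusted p = 0.188). Frat1, which binds glycogen synthase kinase 3, fell by 0.52 ± 0.11 (SE) on the log2 scale (adjusted p = 0.00167). It did not pass in males alone (adjusted p = 0.0737). Of 47 core genes of the Wnt pathway, 1 rose and 1 fell, beside 1.95% and 1.39% of all genes. Of 15 feedback and target genes 0 passed. Axin2, the standard readout of the pathway, had a log2 difference of -0.02 (95% interval -0.12 to 0.08, adjusted p = 0.909).

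The genes that fell most by p were led by Mlip (chr9:77102081-77352969, minus strand), a lamin-interacting protein gene. It spanned 993.7 to 1176 normalised counts after vehicle and 775.4 to 982.4 after lithium with no overlap, a log2 difference of -0.37 ± 0.05 (SE, adjusted p = 1.82e-05). Depp1 (chr6:116650609-116652794, plus strand), a target of FOXO transcription factors, had 42.2, 69.6 and 100.3 at the lowest, median and highest after vehicle and 16.6, 25.8 and 33.6 after lithium. With a log2 difference of -1.43 ± 0.24 (SE, adjusted p = 0.000149) this was a fall to 0.37 of the vehicle level, without overlap. Neurog2 (chr3:127633135-127635631, plus strand), a proneural transcription factor, spanned 21.8 to 49.5 after vehicle and 12.6 to 20.2 after lithium, and fell by 1.02 ± 0.17 (SE) on the log2 scale (adjusted p = 9.98e-05). Both genes were measured at low levels.

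The adhesion molecules Nectin3 and Cdh10 had log2 differences of -0.48 ± 0.08 and -0.32 ± 0.06 (SE), with adjusted p of 0.000149 and 0.000309, and Slitrk1, a synapse-organising protein, of -0.30 ± 0.06 (SE, adjusted p = 0.000887). Cdh10 fell by 0.53 on the log2 scale in females and stood at -0.12 in males (adjusted p = 0.435), and the difference between the sexes passed (-0.42 for females minus males, adjusted p = 0.0359), a call lost, like that of Gsk3b, in the compared groups alone and with the exon length slope in the model. Apbb1ip, an adaptor that activates integrins, spanned 121.4 to 188.3 after vehicle and 92.3 to 133.2 after lithium, a log2 difference of -0.52 ± 0.08 (SE, adjusted p = 3.26e-05). The others with the smallest p that fell were Prr16, Zc3h6, Samd1, Pla2g4e, Nim1k, Prtg and Spata24, with log2 differences from -0.66 to -0.21. Slc22a3, an organic cation transporter, and Scand1 were among the 5 largest falls of genes with a mean count of at least 100, at -0.55 and -0.51. In the insulin and FOXO list of 27 genes, 2 rose and 2 fell, beside 1.95% and 1.39% of all genes. Those that fell were Depp1 and the muscle-wasting ubiquitin ligase gene Fbxo32, the latter at -0.36 ± 0.08 (SE, adjusted p = 0.00545). Fbxo32 did not pass in males alone (adjusted p = 0.185).

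Genes of MAP kinase feedback, which are induced by the kinase and then restrain it, rose in 5 of 18 cases and fell in 0, beside 1.95% and 1.39% of all genes, with a median log2 difference of 0.0072. Spred2 spanned 2266 to 3881 after vehicle and 3255 to 4337 after lithium and rose by 0.35 ± 0.07 (SE, adjusted p = 0.00196). Its relatives Spred3 and Spred1 rose by 0.29 and 0.20, the phosphatase gene Dusp4 by 0.58 ± 0.14 (SE, adjusted p = 0.0127), and Spry4 by 0.30. The arms of all 5 overlapped. The count was less stable than that of the ER chaperones: 1 of the 18 passed in the fit on the compared groups alone, 0 in females alone, 2 with edgeR and 3 without the 3 vehicle libraries of low olfactory bulb level. Spred1 and Spry4 lost their calls with 6 and 11 of the 18 libraries left out in turn, with adjusted p up to 0.0709 and 0.106.

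Genes induced within minutes by neuronal activity lay mostly below 0, with 31 of 37 lower and a median log2 difference of -0.15. Past the threshold were 2 upwards and 1 downwards, beside 1.95% and 1.39% of all genes. Jund fell by 0.32 ± 0.08 (SE) on the log2 scale (adjusted p = 0.0123), whereas the small Maf factor gene Maff rose, from 22.3 to 41.1 after vehicle to 42.1 to 59.4 after lithium (log2 difference 0.70 ± 0.13 SE, adjusted p = 0.000773). Junb had 1568 to 2703 normalised counts after vehicle and 1111 to 1523 after lithium, so its arms did not overlap, yet with a log2 difference of -0.57 ± 0.19 (SE) it did not pass (adjusted p = 0.0966). With the spread taken from the 4 compared groups alone, 8 of the 37 fell, beside 90 of all 16669 genes. On the recovered reads of the 18 libraries 7 fell with edgeR and 11 with DESeq2, which change the tool and the input too. Over all genes 79 of 16669 fell with edgeR and 158 of 16019 with DESeq2. With any 1 of the 18 libraries left out, and without the 3 vehicle libraries of low olfactory bulb level, 1 fell. Of 24 genes of the integrated stress response, 3 rose, beside 1.95% of all genes, and the median was 0.03: Ddit3 rose by 0.28, Atf4 by 0.19 and Sesn2 by 0.19. Without the 3 vehicle libraries of low olfactory bulb level 2 rose. None of these 3 passed in the fit on the compared groups alone or with edgeR. Without lithium female 4 the adjusted p of Atf4 was 0.0602, and Sesn2 lost its call with 11 of the 18 libraries left out in turn (adjusted p up to 0.205).

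Sterol genes moved little. Of 22 enzymes of cholesterol synthesis, 20 lay below 0 with a median of -0.07, and 1 fell, beside 1.39% of all genes. This was Hmgcs1, by 0.21 ± 0.05 (SE) on the log2 scale (adjusted p = 0.0172). Without lithium female 4 its adjusted p was 0.0667, and it also lost its call without the 3 vehicle libraries of low olfactory bulb level. Insig1, which retains the sterol sensor in the ER, spanned 1982 to 2334 after vehicle and 1552 to 2006 after lithium and fell by 0.30 ± 0.06 (SE, adjusted p = 0.00134).

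The markers of brain cell types gave few calls. Among 14 astrocyte markers, the gap junction gene Gjb6 rose by 0.38 ± 0.08 (SE, adjusted p = 0.00249), Fgfr3 passed upwards and Sox9 downwards, and the list's summed count was 140630 to 168170 after vehicle and 147070 to 175450 after lithium. Sox9 lost its call without lithium female 4 (adjusted p = 0.0823), and Fgfr3 with 5 of the 18 libraries left out in turn (adjusted p up to 0.0924). None of the 16 inhibitory neuron, 23 oligodendrocyte or 10 meningeal markers passed with limma. In this test 1 of 12 excitatory neuron and 1 of 17 microglia markers fell and 1 of 18 endothelial markers rose. Over all genes 1.95% rose and 1.39% fell. All 6 blood markers lay above 0 with a median of 0.36, and their summed count was 6096.7 to 16135 after vehicle and 5366.2 to 18705 after lithium. One of them, Slc4a1, rose by 1.19 ± 0.30 (SE) on the log2 scale (adjusted p = 0.0149), which became 0.0615 without lithium male 4. The part of blood and of neighbouring tissue in the gene results was not tested. Of 15 mitochondrially encoded genes 14 lay below 0, with a median of -0.15, and 0 passed with limma in WT.

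The same treatment was measured in HT mice with separate control libraries. There, 2345 genes passed (14.1%), 1244 upwards (7.46%) and 1101 downwards (6.61%). Of the 556 genes of the WT comparison, 506 (91.0%) had the same sign in HT mice and 260 (46.8%) also passed there, while 0 passed in the opposite direction. Those 260 are 11.1% of the HT genes. Over all genes tested, 59.1% had the same sign. Genes that rose in WT kept their sign in 315 of 325 cases and genes that fell in 191 of 231. A test of the difference between genotypes passed for 0 genes with limma, with 2320 at an unadjusted p under 0.05, and for 1 gene in the fit on the compared groups alone. The olfactory bulb markers differed in direction here, with all 10 below 0 in HT and a median of -0.89.

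The glucocorticoid-responsive genes were changed by lithium in HT mice as well. Hif3a rose by 1.49 on the log2 scale (adjusted p = 7.63e-10), Map3k6 by 1.18 (2.79e-06), Sult1a1 by 0.94 (9.63e-06), Zbtb16 by 0.82 (5.5e-06) and Fkbp5 by 0.71 (0.000576), and in all 11 of 26 members rose and 0 fell. Over all genes in HT, 7.46% rose and 6.61% fell. Etnppl rose by 1.26, Frat1 fell by 0.61 and Ctnnb1 by 0.31. Of the ER chaperones, 4 of 31 rose and 1 fell in HT, beside the same shares of all genes. Hspa5 stood at 0.20 (adjusted p = 0.0617) and Pdia4 at 0.11 (adjusted p = 0.407). Neurog2, at -0.19, and Apbb1ip, at -0.10, did not pass in HT. For each of these genes the difference between genotypes was tested and did not pass, so a call in WT beside none in HT is no measured difference; for Hspa5 the adjusted p of that test was 0.247 and for Neurog2 it was 0.196.

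**Figure D3:**
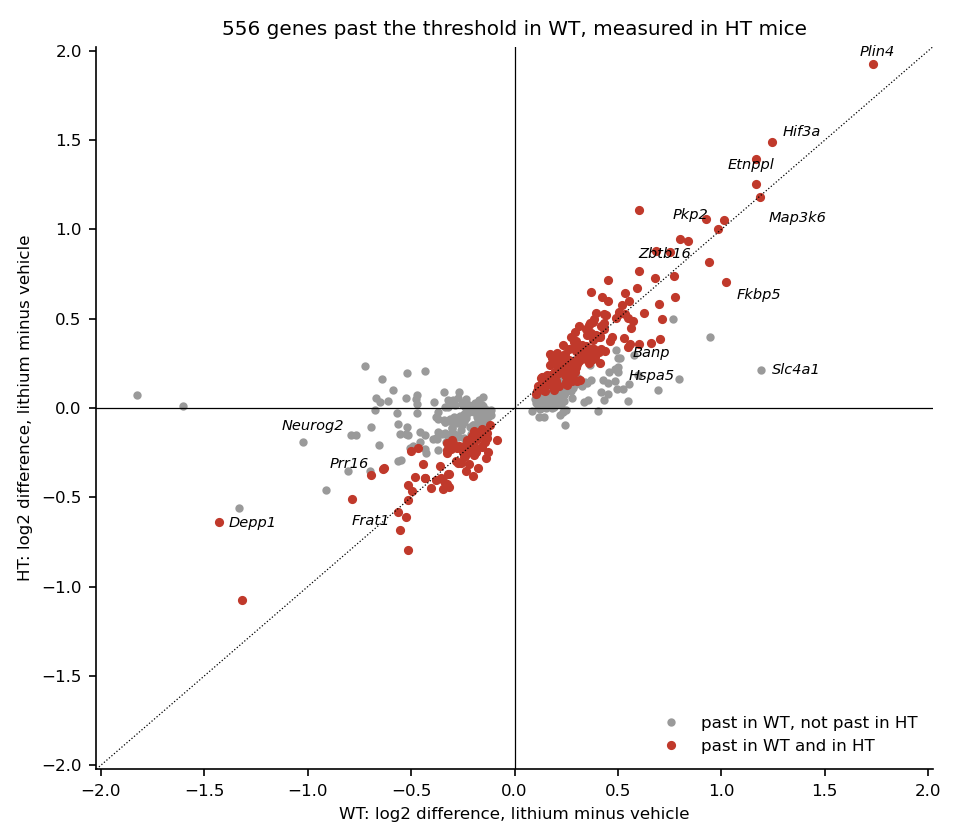
Log2 difference between lithium and vehicle in HT mice (vertical axis) against the same in WT mice (horizontal axis) for the 556 genes past the threshold in WT, in red where the gene also passed in HT (260 genes). The dotted line marks equal values. Most points (506 genes) lie at upper right and lower left, where the signs are equal, and 0 genes of opposite sign passed in HT.

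Fluoxetine, an antidepressant that blocks serotonin uptake, was given in the same way to 10 WT mice. Its difference from vehicle uses the same 10 vehicle libraries, so the values of each drug are set side by side here, and only lithium against fluoxetine was tested directly. In that test 702 genes passed (4.21%), 425 higher (2.55%) and 277 lower (1.66%) after lithium. The fit on the compared groups alone called 228. The count was 247 without lithium female 3 or lithium female 4, 304 without lithium male 4, 446 without lithium male 3, 410 and 421 without fluoxetine males 4 and 5, and 2445 without lithium female 1. The glucocorticoid-responsive genes Hif3a, Zbtb16, Map3k6, Fkbp5 and Sult1a1 stood at 1.25, 0.94, 1.19, 1.02 and 0.84 on the log2 scale after lithium and at 1.32, 0.88, 0.92, 0.86 and 0.76 after fluoxetine. Lithium minus fluoxetine was -0.07, 0.06, 0.27, 0.16 and 0.08, and none of these 5 differences passed. Hspa5 stood at 0.50 after lithium and 0.44 after fluoxetine (difference 0.06, adjusted p = 0.702). Fluoxetine against vehicle passed for 1232 genes (7.39%), 3.98% upwards and 3.41% downwards. Of the ER chaperones, 13 rose after lithium and 15 after fluoxetine, and 1 of 31 differed between the drugs.

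Among the named genes that were higher after lithium than after fluoxetine, Spry4 rose by 0.30 after lithium and fell by 0.43 after fluoxetine, a difference of 0.73 (adjusted p = 1.46e-07). Ppp2r1b, a scaffold subunit of protein phosphatase 2A, spanned 272.2 to 395.7 after vehicle and 402.6 to 465.8 after lithium and differed by 0.48 between the drugs (adjusted p = 6.59e-08). Ptpn1, the insulin receptor phosphatase PTP1B, differed by 0.30 (adjusted p = 3.51e-07). Stk40 stood at 0.01 after lithium and -0.43 after fluoxetine (difference 0.44, adjusted p = 8.67e-07). Of 18 MAP kinase feedback genes 8 were higher after lithium than after fluoxetine, and of 37 activity genes 18 were higher and 1 lower. Over all genes 2.55% were higher and 1.66% lower. Lower after lithium than after fluoxetine were Zc3h6 (-0.54, adjusted p = 1.36e-05), Gfpt2 (-0.47, 5.38e-05), Prtg (-0.58, 0.000148) and Apbb1ip (-0.46, 0.000207). Of the cholesterol enzymes, 1 fell after lithium and 18 after fluoxetine, and 7 of 22 were higher after lithium than after fluoxetine. Pfkfb3 stood at 0.41 after lithium and -0.06 after fluoxetine (difference 0.47, adjusted p = 6.39e-06).

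**Figure D4:**
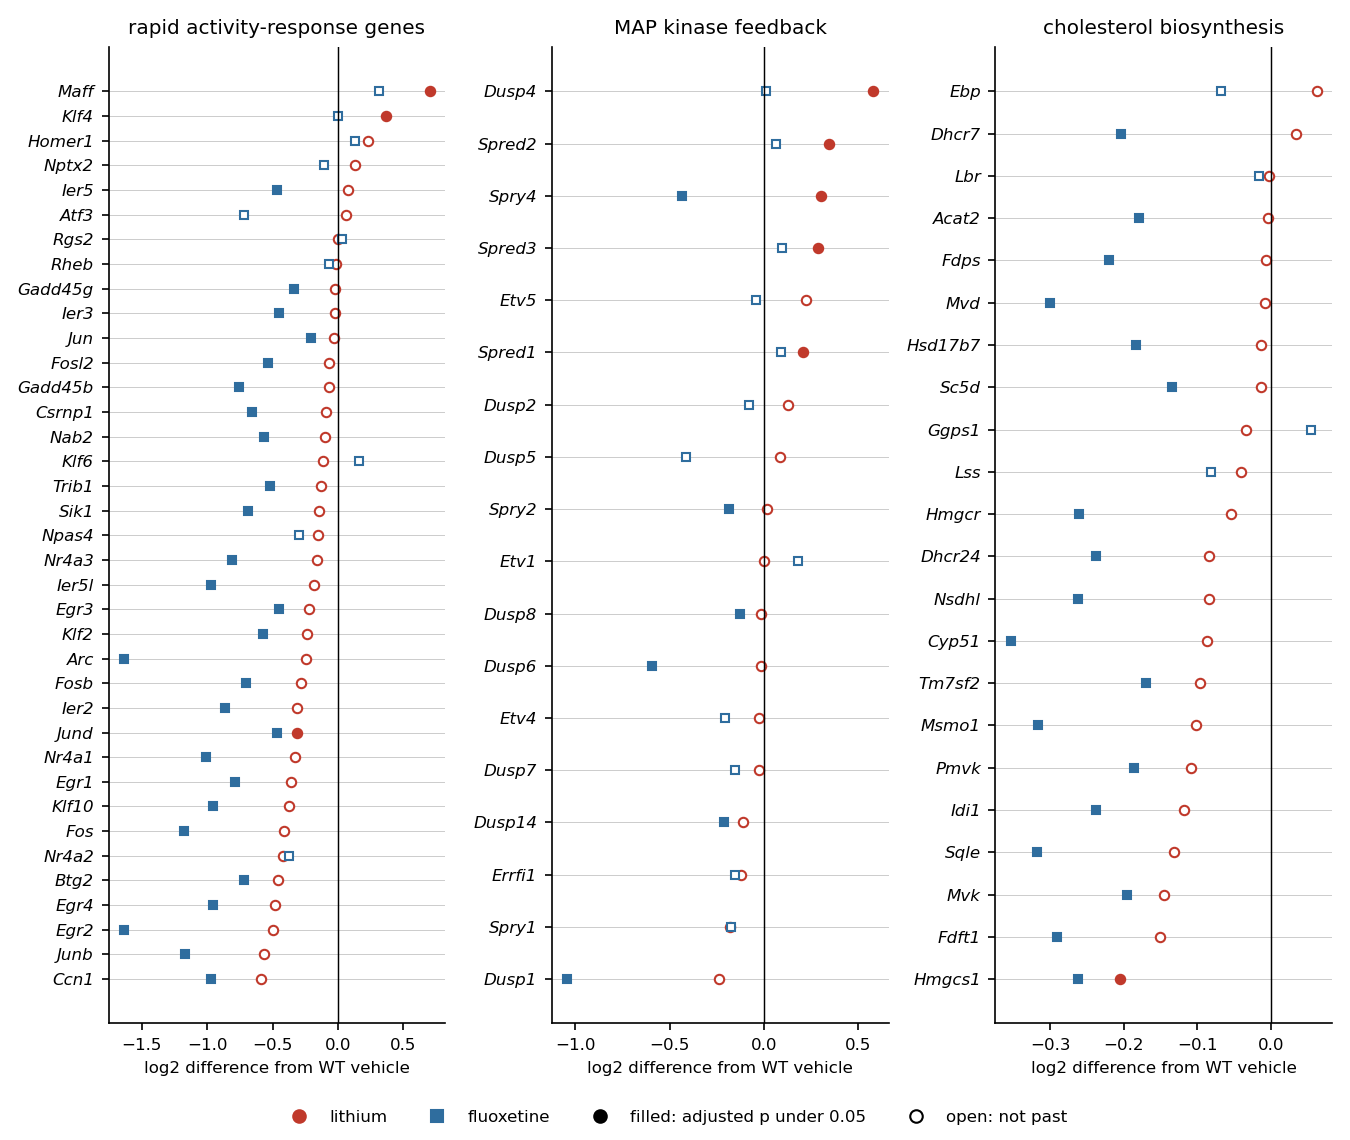
Log2 difference from the shared WT vehicle libraries after lithium (red circles) and after fluoxetine (blue squares) for every tested member of 3 lists, filled where the adjusted p was under 0.05. In the activity list 1 gene fell after lithium and 27 after fluoxetine, and in the cholesterol list 1 and 18. The lithium count of the 37 activity genes was 8 in the fit on the compared groups alone, beside 90 of all 16669 genes. Fluoxetine against vehicle was not refitted in that way. Over all genes 1.39% fell after lithium and 3.41% after fluoxetine.

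The effect of lithium differed between females and males for 486 genes (2.92%), with 314 more positive in females (1.88%) and 172 more positive in males (1.03%). Of 83 cytosolic ribosomal protein genes, 62 were among the former, with a median difference of 0.45 between the sexes, and of 80 nuclear genes of oxidative phosphorylation, 30. Rpl35a had a log2 difference of 0.26 in females and -0.45 in males, Rps18 of 0.33 and -0.22, Rpl26 of 0.26 and -0.30, and Ndufa4 of 0.47 and -0.44, each with an adjusted p of 0.000745 for the difference. On the other side stood Tbck (-0.22 in females and 0.17 in males), Rpgrip1l, Nalcn and Zfp458. The median log2 deviation of the ribosomal protein genes was between -0.141 and -0.0903 in the lithium males, between 0.0643 and 0.16 in the vehicle males, between 0.00794 and 0.407 in the lithium females and between -0.22 and 0.144 in the vehicle females.

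A library measure computed from the same normalised counts moved with this result. The ribosomal protein genes enter that measure, so the 2 are not independent. The slope of a library's log2 deviation on log2 exon length was positive in all 4 lithium males and negative in 4 of the 5 vehicle males, while it took both signs in the female groups. With that slope in the model 0 genes passed with limma (748 at an unadjusted p under 0.05), and 0 passed in the fit on the compared groups alone (2581 at an unadjusted p under 0.05). Without the 3 vehicle libraries of low olfactory bulb level 11 passed. With single libraries left out, the count was 59 without lithium female 3, 114 and 152 without vehicle females 3 and 2, and between 235 and 311 without lithium female 4, lithium males 1, 2 and 3, vehicle female 5 or vehicle males 1, 2 and 5. It was 986 and 1191 without vehicle females 4 and 1 and 1895 without lithium female 1. The part of the slope in the sex difference was not tested. The main comparison of lithium with vehicle kept 463 of its 556 genes with the slope in the model, among 689 called.

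**Figure D5:**
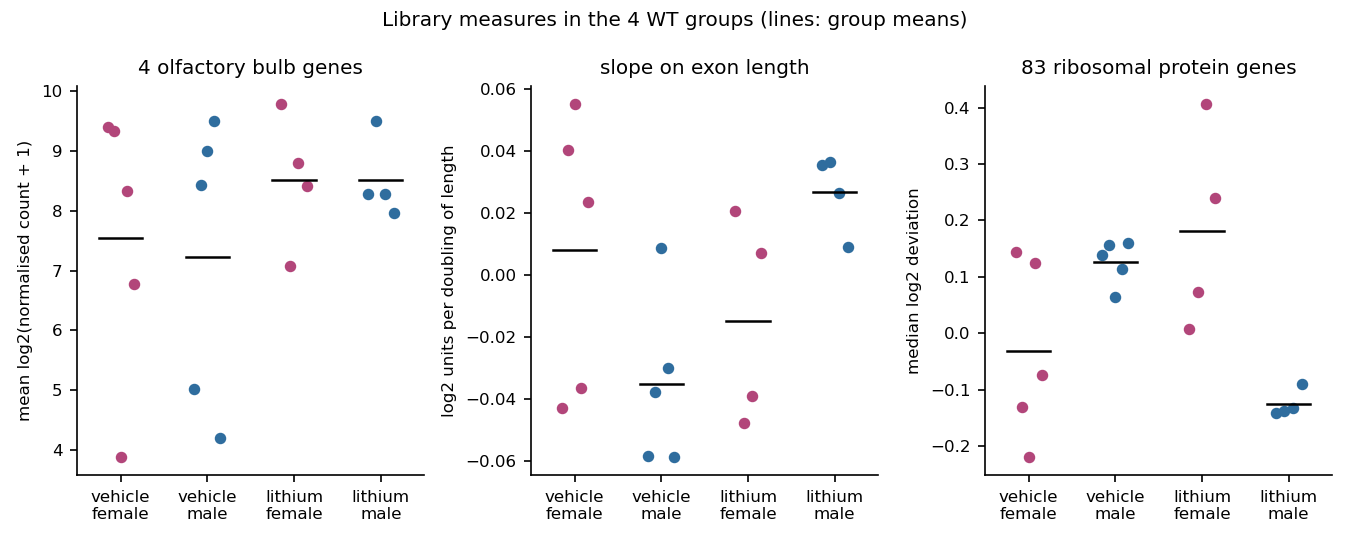
Measures for each library of the 4 WT groups, with lines at the group means: the mean log2 level of 4 olfactory bulb genes, the slope of the log2 deviation on log2 exon length, and the median log2 deviation of 83 ribosomal protein genes from their mean over all libraries. Lithium males have slopes from 0.00889 to 0.0364 and vehicle males from -0.0589 to 0.00867, and their ribosomal values do not overlap.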

How the data were processed

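Whole prefrontal cortex of 58 mice was sequenced with a stranded poly(A) kit, per the labels' protocols. Per the submitters' processing notes, Salmon 0.11.2, R 3.6.0 and DESeq2 1.19.11 were used with GRCm38; the annotation release is not given in the sources used here. The deposited signal is a gene count divided by a size factor of its library, called normalised count; in all 18 WT lithium and vehicle libraries the values came out as whole reads (tolerance 0.01), 24.2 M to 38.6 M reads per library. Of 18088 genes, 18077 matched a symbol. Genes with a mean of at least 10 over all libraries (16669) were tested on log2(normalised count + 1) with limma 3.58.1 (R 4.3.3): 1 coefficient for each group of genotype, drug and sex over all 58 libraries, sexes averaged, with Benjamini-Hochberg adjustment and a threshold of 0.05. Log2 differences are on that scale and understate changes of low genes. edgeR 4.0.16 and DESeq2 1.42.0 were run on the recovered reads as alternatives, with other pseudocounts, filters, normalisations, covariates and libraries left out. The scripts were tested on simulated data. No set test was run; 48 gene lists were counted.

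Named genes are the 15 each way with the smallest p and the same sign in both sexes, the 5 each way with the largest change at a mean of at least 100, up to 6 members of each list, the 4 each way of the sex and drug tests, and Kmt5b, Axin2 and the enzymes that lithium is known to inhibit; 10 list members outside this rule were added. The members and lists were chosen with earlier results of these data known, and the olfactory bulb level of 6 that marks 3 libraries as low was chosen after seeing the data. Some genes that the rule picks are not reported here.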

Additional observations from a re-analysis of the deposited data

Results flagged for a closer look

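In 10 of 206 arms examined, 1 library lay far from the others of its arm by Dixon's test at the 95% level; chance gives about 1 in 20. Vehicle male 3 was the highest of its arm for Fkbp5, at 1114 normalised counts against at most 713.1 in the others, and for Ctnnb1, at 20950 against at most 18900. Vehicle male 4 was the lowest for Manf (851.4) and for Sdf2l1 (151.3) and the highest for Gfpt2 (308.4). Among lithium libraries, female 4 was the highest for Mcf2l (6912), female 3 for Gjb6 (1995) and male 4 for Slc4a1 (38.8), and female 1 was the lowest for Spry4 (365.4). Vehicle female 5 stood apart in the mean log2 level of 5 striatal genes (8.63).

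The effect of lithium differed between the sexes for 486 genes by a test of that difference. In the compared groups alone, and with the exon length slope in the model, 0 genes passed, so the calls below were lost there. As log2 values of females minus males, the difference was 0.91 for Ndufa4, 0.71 for Rpl35a, 0.58 for Rpl17, 0.56 for Rpl26, 0.54 for Rps18 and 0.42 for Samd1. It was -0.33 for Gsk3b, -0.39 for Tbck, -0.42 for Cdh10, -0.46 for Nalcn, -0.55 for Rpgrip1l and -0.69 for Zfp458.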

How the results depend on the processing

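The count of 556 genes was 229 in the compared groups alone, 222 with edgeR, 302 in females alone, 321 without the 3 vehicle libraries of low olfactory bulb level and 1105 with olfactory bulb level and exon length slope together, the last 2 chosen after seeing the data. The other settings with all libraries stayed within 1.5 times. Leaving out 1 library gave 272 to 771 genes, in HT mice 1644 to 2691, against fluoxetine 247 to 2445, by sex 59 to 1895 and by genotype 0 to 37. The sex difference, 486 genes, became 0 in the compared groups alone, 0 with the slope as a covariate, 868 with the olfactory bulb level, 231 with the striatal level, 2 with olfactory bulb level and slope together and 11 without the 3 vehicle libraries. Lithium against fluoxetine gave 228 genes in the compared groups alone and 1324 with the olfactory bulb level. By genotype, 1 gene passed in the compared groups alone. Where fewer samples entered, the fit had fewer libraries; otherwise the cause was not tested. Replicate numbers did not pair the samples: same-numbered libraries correlated at -0.15 to 0.164 and 2 of 8 correlated best with their own number. With the replicate block 411 genes passed in WT and 264 by sex. Of 35 genes named by p or size, 22 passed in every setting that tested them, out of 36 settings. Of their 1256 values 15 lost the call and 0 reversed. These genes were picked from the main fit, most of them also for equal signs in both sexes. That choice favours kept calls and signs, so these counts do not measure the stability of the other calls. Rpl17 (0.11) and Rpl26 (0.26) turned positive in females alone, and Rps18 (-0.22) and Ndufa4 (-0.44) negative in males alone.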
